A study of Homo sapiens with 10 samples.

Results

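The 32 genes described here are the transcription factor NRF2 (gene symbol NFE2L2), its repressor and partner, and genes of glutathione synthesis, thioredoxin reduction, NADPH supply, peroxide removal and cellular iron. They were taken by symbol from a list of antioxidant, NADPH-supply and iron genes, chosen with earlier results of these data known. All 32 were found among the 58222 genes of the expression table. OVCAR-3, a long-established line of human ovarian adenocarcinoma cells, gave the RNA, in 5 groups of 2 biological replicates. Day1 cells had been held in silica gel for 24 hours and Day3 cells for 3 days. Extracted cells were the survivors of 3 days in gel, grown again under standard conditions for 2 weeks. Treated cells, whose labels mention no gel, were the survivors of 24 hours in 0.5 uM cisplatin, a drug whose platinum links DNA strands, followed by 2 weeks of recovery. Control cells stayed in standard culture, an RPMI medium with fetal bovine serum, which the labels give for every group. Extracted and Treated RNA therefore came from cells that had survived and regrown, and all 5 groups derive from a single cell line.

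NRF2 is a transcription factor that KEAP1 holds in the cytoplasm and marks for degradation, and oxidants or electrophiles that modify KEAP1 let NRF2 accumulate, pair with a small MAF protein such as MAFG and bind antioxidant response elements. Its targets make and reduce glutathione, keep thioredoxin reduced, detoxify quinones and store iron. Ferritin, a shell of FTH1 and FTL chains, holds iron in an inert form, the transferrin receptor TFRC imports iron and ferroportin, encoded by SLC40A1, exports it. The iron regulatory protein IREB2 binds iron-responsive elements in these messages when iron is low, which blocks ferritin translation and stabilises the TFRC message, so that a transcript level is not a measure of ferritin protein. In ovarian carcinoma this network is known for its links to platinum tolerance, since glutathione binds platinum.

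The values were TPM, a length-adjusted abundance that sums to nearly the same total in every library, so they are shares and sequencing depth is unknown. Between 13896 and 14173 genes reached 1 TPM per library. All 10 markers of ovarian carcinoma and epithelium reached 1 TPM, among them PAX8 at 309 to 501 TPM and KRT8 at 1350 to 1924 TPM, while the hemoglobin genes HBB and HBA1 were listed at 0 in all 10 libraries. The 6 blood-cell markers summed to 6.999 to 8.74 TPM in Treated libraries, against 3.85 to 6.27 TPM in Control libraries. The other groups stood at 1.85 to 3.89 TPM for this sum. Over all 10 libraries CD68 was at 1.121 to 7.46 TPM, while PTPRC stayed at or below 0.306 TPM and CD3E at or below 0.057 TPM. The 4 endothelial markers summed to 2.52 to 2.75 TPM in Treated libraries, against 1.32 to 1.49 TPM in Control libraries. The 6 fibroblast markers summed to 10.23 to 15.33 TPM in Treated libraries, around the 12.35 to 14.21 TPM of Control libraries. These sums do not show that such cells were present, and their part in any result was not tested. Messenger RNA of the mitochondrial genome took 2.29% and 3.92% of TPM in Day1 libraries and 5.97% and 7.61% in Day3 libraries. The share was 11.1% and 10.6% in Extracted libraries and 10.8% and 10.4% in Treated libraries, against 16.7% and 15.8% in Control libraries. Small-RNA genes took 14.7% of TPM in Treated replicate 2 and 3.21% in Extracted replicate 1, and 0.196% to 1.24% elsewhere. The median log2 difference of all 15167 tested genes was 0.12 for Day1, 0.06 for Day3, -0.02 for Extracted and -0.15 for Treated, each against Control, and -0.13 for Treated against Extracted. Median-of-ratios scaling, which centres the typical gene, brought these medians to 0.01, 0.02, 0.00, -0.01 and -0.01. Among nuclear protein-coding genes alone they were -0.06, -0.06, -0.09, -0.13 and -0.04, and the part of either share in the medians was not tested. With RNA from whole cultures, fewer cells expressing a gene and less of its RNA per cell cannot be told apart.

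To show the DNA letters that such a factor is known to read, the short antioxidant response element core TGACNNNGC was searched on both strands from 250 bases before to 50 bases after each RefSeq start (build GRCh38.p14). Of the 25 members with a window, 4 held the core, against 16.1% of the 27305 genes in the table and 13.3% of its 35116 windows. They are the members GCLM, TXNRD1, PGD and KEAP1. Each sequence reads 5′ to 3′ on the strand of its gene, with the core or its reverse complement in capitals, and a match is a description of letters only.
GCLM, chr1:93909446-93909474, minus strand, 34 bases before the start: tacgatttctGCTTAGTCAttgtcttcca
TXNRD1, chr12:104215670-104215698, plus strand, 99 bases before the start: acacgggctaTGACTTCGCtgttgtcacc
TXNRD1, chr12:104215761-104215789, plus strand, 8 bases before the same start: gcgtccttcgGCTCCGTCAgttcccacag
TXNRD1, chr12:104286920-104286948, plus strand, 102 bases before another start: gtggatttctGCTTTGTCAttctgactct
PGD, chr1:10398853-10398881, plus strand, 201 bases before the start: cctcgccgggGCAATGTCAtctaggtgct
KEAP1, chr19:10502807-10502835, minus strand, 54 bases before the start: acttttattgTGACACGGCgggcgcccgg
KEAP1, chr19:10502784-10502812, minus strand, 31 bases before the same start: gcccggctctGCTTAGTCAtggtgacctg

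Over the whole set, the ferritin transcripts were higher in the gel groups and in cisplatin survivors, while NFE2L2, MAFG and OSGIN1 were higher on the first day in gel and lower in cisplatin survivors. GCLC and GSS were higher on the first day in gel, and NQO1, GCLM and TXNRD1 were lower in cisplatin survivors. Differences are log2 differences of log2(TPM + 1), tested with limma over all genes, and calls are those with a Benjamini-Hochberg adjusted p under 0.05. The NFE2L2 and OSGIN1 falls and the GCLC rise lay near that threshold (limma adjusted p = 0.0495, 0.049 and 0.0474). Neither fall was called with median-of-ratios scaling or with small-RNA genes removed, and the GCLC rise was not called among nuclear protein-coding genes alone. All 32 members passed the filter of 1 TPM in at least 2 libraries. In Day1 cells 8 members were called higher and 1 lower than in Control cells, where 14.4% of all tested genes were called higher, 6.28% lower and 20.7% in either direction. In Day3 cells 5 were called higher and 1 lower, beside 5.18%, 4.64% and 9.82% of all genes. In Extracted cells 1 was called higher and 0 lower, beside 0.857%, 1.13% and 1.99% of all genes. At an unadjusted p under 0.05, limma gave 4 higher and 1 lower there, with GPX4 and GPX1 nearest to the threshold. In Treated cells 5 were called higher and 10 lower, beside 6.28%, 18.2% and 24.5% of all genes. Across the 5 groups a moderated F test called 20 members, beside 47.1% of all genes. Medians over the 32 members were 0.21 (Day1), 0.14 (Day3), 0.08 (Extracted) and -0.15 (Treated), next to the medians of all genes given above. The Treated median was -0.30 without Treated replicate 1, -0.01 without Treated replicate 2 and 0.02 with median-of-ratios scaling. The 4 comparisons share the Control libraries. Of the 32 members, 13 were called in none of them, 11 in a single one, 5 in 2, 2 in 3 and FTH1 in all 4. Repeated calls were not counted over all tested genes, so these numbers do not set members apart from other genes.

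**Figure D1:**
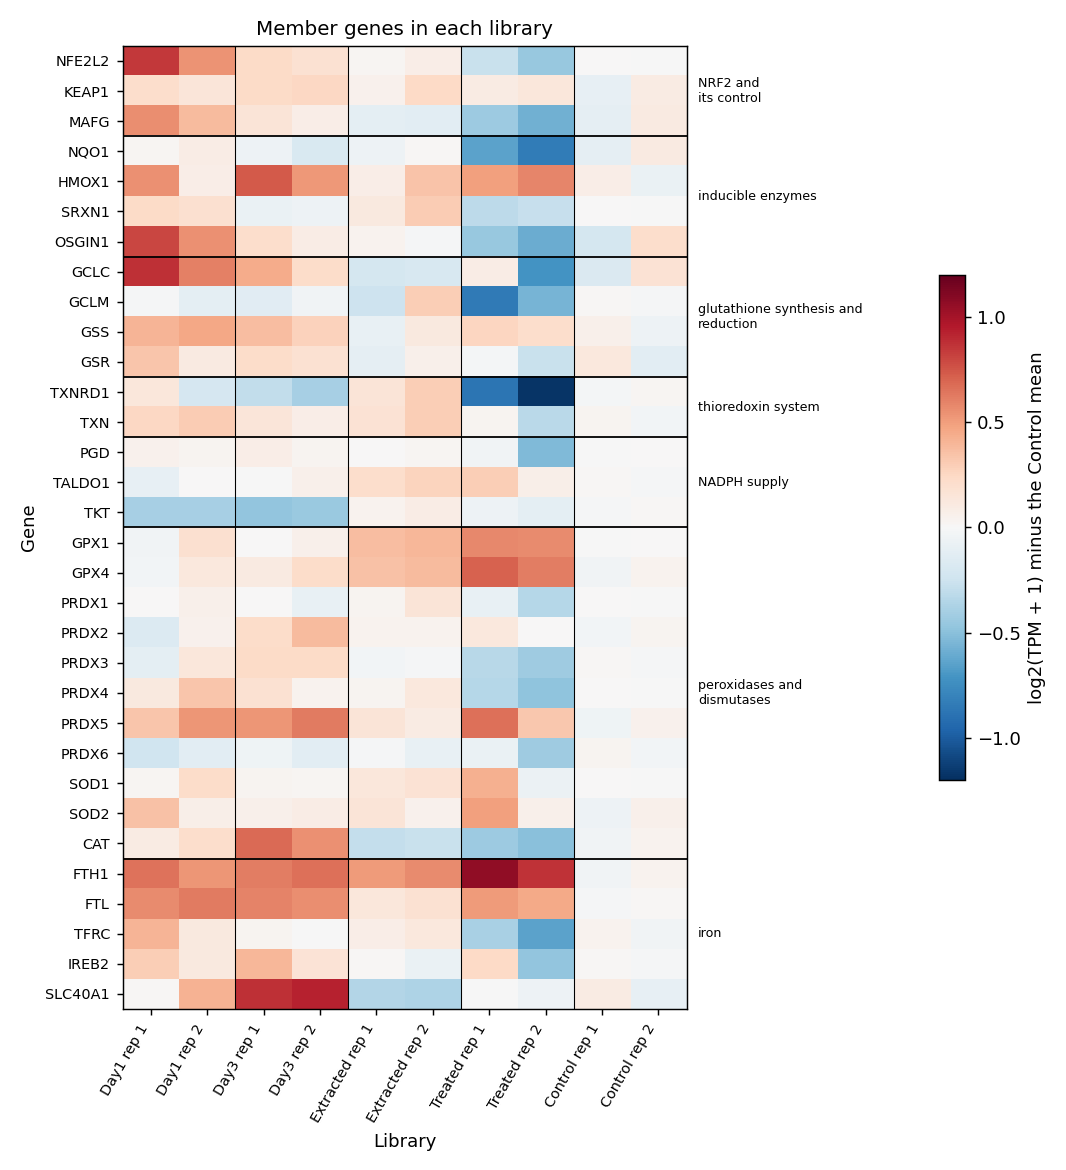
Colour shows log2(TPM + 1) of each member (rows, by role) in each of the 10 libraries (columns) minus the mean of the 2 Control libraries. FTH1 is above Control in every other library, NFE2L2, MAFG, OSGIN1 and GCLC are highest in Day1 libraries, and NQO1, GCLM and TXNRD1 are lowest in Treated libraries.

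The split between higher and lower calls depended on scaling. With median-of-ratios scaling it was 6 higher and 2 lower in Day1 cells, 5 and 2 in Day3 cells, 1 and 0 in Extracted cells, and 10 and 5 in Treated cells, where 10 of the 15 original calls remained. All tested genes shifted too: under this scaling 1632 were higher and 1685 lower in Day1 cells (2180 and 952 as deposited), 830 and 1139 in Day3 cells (786 and 703), 331 and 308 in Extracted cells (130 and 172), and 1855 and 1777 in Treated cells (953 and 2762). With small-RNA genes removed it was 9 and 7 in Treated cells, with 12 of the 15 kept, beside 1534 and 2061 of all genes. Among nuclear protein-coding genes alone, where GPX1 is not included because its annotation class differs, 31 members were tested. The split there was 4 and 3 in Day1 cells, 5 and 2 in Day3 cells, 1 and 1 in Extracted cells and 6 and 11 in Treated cells, beside 1037 and 2014, 458 and 1449, 241 and 791, and 1320 and 3029 of all genes. Single libraries also moved the Treated result, for members and for all tested genes. The member median was -0.30 without Treated replicate 1 and -0.01 without Treated replicate 2, beside -0.24 and -0.06 for all tested genes. It was -0.11 without Control replicate 1 and -0.16 without Control replicate 2, beside -0.16 and -0.13 for all tested genes. The split of member calls was 4 higher and 4 lower in a fit of Treated and Control libraries alone. No called member changed sign under any of the alternative fits described below. These were 9 other settings and 10 fits that each left out 1 library, 19 in all. Calls made in each of the 19 were NFE2L2 and FTL in Day1 cells, FTL in Day3 cells, and NQO1, TXNRD1, GPX4, FTH1 and FTL in Treated cells, with GPX1 called there in all 18 in which it was tested.

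NFE2L2, the gene of NRF2 itself (chr2:177227595-177392697, minus strand, GRCh38), stood at 126 and 102 TPM in Day1 libraries, 81.8 and 79.6 TPM in Day3, 71.0 and 73.8 TPM in Extracted, and 57.9 and 50.8 TPM in Treated, against 70.0 and 69.6 TPM in Control libraries. Both Day1 libraries lay above every other library and both Treated libraries lay below every other library. Against Control, NFE2L2 rose by 0.69 ± 0.12 (SE) on the log2 scale in Day1 cells (limma adjusted p = 0.00417, n = 2 libraries a group). It fell by 0.36 ± 0.12 in Treated cells (limma adjusted p = 0.0495), a call lost in 13 of 19 alternative fits, with adjusted p between 0.0228 and 0.179. Those were pseudocount 0.1, no filter, median-of-ratios scaling, removal of small-RNA genes, no variance trend, the compared groups alone, and leaving out any Control, Day3 or Extracted library or Treated replicate 2, and the difference ran between -0.45 and -0.20 over all 19. In Day3 and Extracted cells NFE2L2 differed from Control by 0.21 (95% interval -0.05 to 0.47) and 0.05 (-0.21 to 0.31), and neither passed the test.

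MAFG, a small MAF protein that pairs with NRF2 on DNA (chr17:81918270-81927714, minus strand), followed with 30.2 and 26.4 TPM in Day1 libraries, 22.5 and 21.3 TPM in Day3, 18.5 and 18.4 TPM in Extracted, and 14.6 and 13.2 TPM in Treated, against 18.6 and 21.8 TPM in Control libraries. It rose by 0.47 ± 0.12 in Day1 cells (limma adjusted p = 0.0241) and fell by 0.51 ± 0.12 in Treated cells (limma adjusted p = 0.0154), and neither pair overlapped the Control pair. The Day1 call was lost in 5 of 19 alternative fits, among nuclear protein-coding genes, with the compared groups alone and without either Control library or Day1 replicate 1, with differences between 0.27 and 0.58. The Treated call was lost in 3, with the compared groups alone, without Control replicate 2 and without Treated replicate 2, with differences between -0.62 and -0.35. KEAP1, the repressor (chr19:10486120-10503741, minus strand), was at 47.0 and 45.03 TPM in Day1 libraries, 47.6 and 48.4 TPM in Day3, 42.0 and 48.1 TPM in Extracted, and 43.3 and 44.5 TPM in Treated, against 37.8 and 43.4 TPM in Control libraries. No comparison called KEAP1, and its intervals against Control ran from -0.06 to 0.42 in Day1 cells and from -0.13 to 0.35 in Treated cells. The ratio of NFE2L2 to KEAP1 TPM was 2.69 and 2.26 in Day1 libraries and 1.34 and 1.14 in Treated libraries, against 1.85 and 1.60 in Control libraries, without overlap.

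The classical inducible enzymes did not move as a block. OSGIN1, a growth inhibitor induced by oxidative stress (chr16:83948282-83966332), was at 8.74 and 7.17 TPM in Day1 libraries, 5.47 and 4.97 TPM in Day3, 4.75 and 4.53 TPM in Extracted and 3.08 and 2.70 TPM in Treated, against 3.85 and 5.45 TPM in Control libraries. It rose by 0.67 ± 0.17 in Day1 cells (limma adjusted p = 0.0222) and fell by 0.53 ± 0.17 in Treated cells (limma adjusted p = 0.049). The Control pair spread widely, and neither pair overlapped it. The Day1 call was lost in 4 of 19 alternative fits, with no filter, with the compared groups alone and without Control replicate 1 or Day1 replicate 1, with differences from 0.47 to 0.88. The Treated call was lost in 13 of 19, with adjusted p between 0.0358 and 0.308 and differences between -0.73 and -0.32. Among the 13 were median-of-ratios scaling, removal of small-RNA genes, the replicate block, and leaving out Control replicate 2 or any Day3, Extracted or Treated library.

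NQO1, which reduces quinones and is a standard readout of NRF2 activity (chr16:69706996-69726951, minus strand), was at 143 and 149.5 TPM in Day1 libraries, 135 and 124 TPM in Day3, 135 and 142 TPM in Extracted and 89.9 and 78.4 TPM in Treated, against 131 and 152 TPM in Control libraries. Only the Treated pair lay outside the range of the rest. NQO1 fell by 0.74 ± 0.11 in Treated cells (limma adjusted p = 0.00154) and differed by 0.06 (95% interval -0.19 to 0.30) in Day1 cells, where NFE2L2 was highest. SRXN1, the sulfiredoxin that repairs overoxidised peroxiredoxins, ranged from 19.7 to 30.7 TPM and passed no test against Control. Another gene entry on the same strand covers 85% of its exonic bases and stayed at or below 0.397 TPM. HMOX1, which breaks heme down and frees its iron, was the lowest member at 1.10 to 2.72 TPM. It was at 2.72 and 2.19 TPM in Day3 libraries and 2.14 and 2.35 TPM in Treated libraries, against 1.36 and 1.10 TPM in Control libraries. Neither difference passed the test (0.63, limma adjusted p = 0.0884, and 0.54, limma adjusted p = 0.0842), though the Treated difference passed at 0.66 with median-of-ratios scaling and at 0.62 among nuclear protein-coding genes alone.

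In glutathione synthesis the catalytic subunit gene of glutamate-cysteine ligase, the rate-limiting enzyme, and the gene of its modifier subunit moved differently. GCLC, the catalytic subunit (chr6:53497341-53616970, minus strand), was at 57.5 and 47.2 TPM in Day1 libraries, 42.4 and 36.1 TPM in Day3, 26.4 and 26.8 TPM in Extracted and 32.9 and 18.3 TPM in Treated, against 27.2 and 34.8 TPM in Control libraries. GCLM, the modifier (chr1:93885205-93909456, minus strand), was at 10.1 and 9.36 TPM in Day1, 9.20 and 9.88 TPM in Day3, 8.48 and 12.8 TPM in Extracted and 5.25 and 6.61 TPM in Treated, against 10.3 and 10.2 TPM in Control. GCLC rose by 0.74 ± 0.23 in Day1 cells (limma adjusted p = 0.0474), both Day1 libraries lying above all others, and GCLM fell by 0.70 ± 0.18 in Treated cells (limma adjusted p = 0.0189), both Treated libraries lying below all others. The GCLC call was lost in 12 of 19 alternative fits, among them leaving out any Control, Day1, Day3 or Extracted library, pseudocount 0.1 and no filter, with differences from 0.54 to 0.91 and adjusted p from 0.00713 to 0.237. The GCLM call was lost in 5, with no filter, under median-of-ratios scaling and without either Control library or Treated replicate 1, with differences from -0.85 to -0.56. The 2 Treated libraries differed most in GCLC, and the ratio of GCLC to GCLM TPM was 6.26 and 2.78 there, against 5.67 and 5.04 in Day1 and 2.64 and 3.43 in Control libraries.

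GSS, which adds glycine to complete glutathione (chr20:34928433-34956027, minus strand), was at 37.4 and 38.9 TPM in Day1 libraries, 36.6 and 34.2 TPM in Day3, 26.3 and 30.4 TPM in Extracted and 33.7 and 32.6 TPM in Treated, against 29.2 and 26.8 TPM in Control libraries. It rose by 0.43 ± 0.11 in Day1 cells (limma adjusted p = 0.0212). Day3 and Treated pairs also lay above the Control pair, with differences of 0.33 and 0.24 that did not pass the test. The Day1 call was lost in 6 of 19 alternative fits, under median-of-ratios scaling, among nuclear protein-coding genes and without any Control or Day1 library, with differences from 0.23 to 0.49, and the Treated difference passed under median-of-ratios scaling at 0.40 and with small-RNA genes removed at 0.35. GSR, which returns oxidised glutathione to its reduced form with NADPH, ranged from 40.7 to 62.3 TPM over the 10 libraries and was called nowhere.

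Among the 32 members TXNRD1 had the largest fall against Control, in Treated cells. This selenium-containing enzyme keeps cytosolic thioredoxin reduced (chr12:104215779-104350305, plus strand), and its transcript was at 219 and 173 TPM in Day1 libraries, 162 and 151 TPM in Day3, 222 and 244 TPM in Extracted and 108 and 87.4 TPM in Treated, against 196 and 202 TPM in Control libraries. Extracted libraries were the highest and Treated libraries the lowest, and neither pair overlapped any other group. The Treated difference was -1.02 ± 0.13 (limma adjusted p = 0.000893). TXN, thioredoxin itself, was at 379 and 296 TPM in Treated libraries, against 378 and 362 TPM in Control libraries, and reached 390.9 to 458 TPM in the Day1, Day3 and Extracted libraries. As deposited, no comparison called it, the nearest being Treated against Extracted (-0.38, limma adjusted p = 0.0601), which passed with small-RNA genes removed at -0.29 and among nuclear protein-coding genes at -0.26. In Day1 cells against Control TXN passed with small-RNA genes removed, at 0.28, and without either Treated library.

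Of the 3 pentose phosphate members, TKT was called. Transketolase, a reversible enzyme of the non-oxidative branch (chr3:53224707-53256052, minus strand), was at 213 and 213 TPM in Day1 libraries, 202 and 207 TPM in Day3, 289 and 299.9 TPM in Extracted and 269 and 259.9 TPM in Treated, against 278 and 284 TPM in Control libraries. All 4 gel libraries lay below all 6 others. TKT fell by 0.40 ± 0.08 in Day1 cells (limma adjusted p = 0.00839) and by 0.46 ± 0.08 in Day3 cells (limma adjusted p = 0.00874). The Day1 call was lost without either Control library, and the Day3 call without any Control or Day3 library, with differences from -0.61 to -0.38 for Day1 and from -0.61 to -0.44 for Day3. PGD, which makes NADPH in the oxidative branch, was at 254 TPM in Treated replicate 2, the library rich in small-RNA genes, and at 359 to 391 TPM in the other 9. TALDO1, transaldolase, was at 135 to 151 TPM in Day1, Day3 and Control libraries and at 152 to 178 TPM in Extracted and Treated libraries. Its Treated difference of 0.19 did not pass the test but passed under each of the 3 other scalings, at 0.35, 0.30 and 0.23. In Day1 cells TALDO1 passed in the other direction among nuclear protein-coding genes alone, at -0.26, from -0.05 as deposited.

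**Figure D2:**
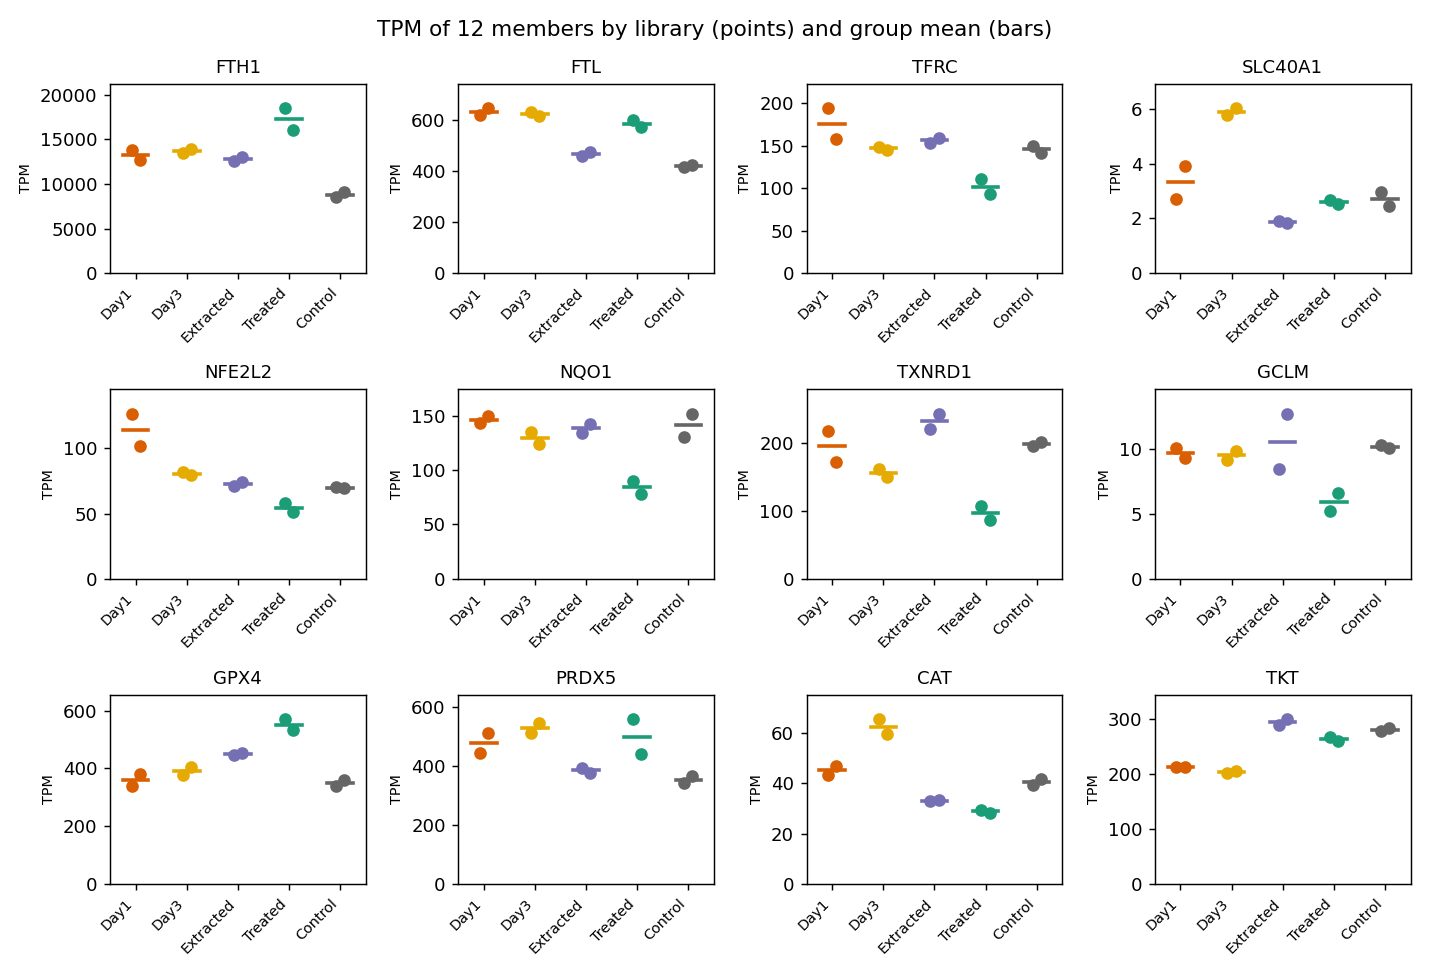
Points are TPM of 12 members in each library, and bars are the means of the 2 libraries in each group, on axes that start at 0. FTH1 and FTL, GPX4 and PRDX5 are above Control in Treated libraries, while NFE2L2, NQO1, TXNRD1, GCLM, TFRC and CAT are below it there.

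In cisplatin survivors both glutathione peroxidases were higher than in Control cells, while among the peroxiredoxins 1 was higher and 2 were lower. GPX4, which reduces lipid hydroperoxides inside membranes (chr19:1103926-1106791, plus strand), was at 341 and 382 TPM in Day1 libraries, 377 and 405 TPM in Day3, 445 and 453 TPM in Extracted and 569.8 and 534 TPM in Treated, against 338 and 360.2 TPM in Control libraries. GPX1, a cytosolic glutathione peroxidase (chr3:49357171-49358600, minus strand), was at 28.8 and 34.0 TPM in Day1, 29.7 and 30.9 TPM in Day3, 38.5 and 39.4 TPM in Extracted and 44.8 and 44.4 TPM in Treated, against 29.6 and 29.7 TPM in Control. For both genes the Treated pair was highest and the Extracted pair next, with no overlap between them or with the rest. GPX4 rose by 0.66 ± 0.09 (limma adjusted p = 0.00117) and GPX1 by 0.57 ± 0.11 (limma adjusted p = 0.00459) in Treated cells. In Extracted cells the differences were 0.36 (limma adjusted p = 0.0778) and 0.38 (limma adjusted p = 0.0998), and the first passed with small-RNA genes removed, at 0.38. Both enzymes contain selenium, as does TXNRD1, whose transcript was lowest in the same Treated libraries. Reads of 2 GPX1 pseudogenes came to at most 5.35% of GPX1 in any library.

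The peroxiredoxins reduce peroxides, most of them with electrons from thioredoxin and PRDX6 with those of glutathione, and the 6 genes together summed to 1737 and 1432 TPM in Treated libraries, against 1625 and 1632 TPM in Control libraries. PRDX5 (chr11:64318088-64321811, plus strand) was at 444 and 511 TPM in Day1, 511 and 545 TPM in Day3, 393 and 378 TPM in Extracted and 558 and 442 TPM in Treated libraries, against 341 and 366 TPM in Control libraries. It was the one peroxiredoxin called higher: it rose by 0.43 ± 0.12 in Day1 (limma adjusted p = 0.0316), 0.58 ± 0.12 in Day3 (limma adjusted p = 0.019) and 0.49 ± 0.12 in Treated cells (limma adjusted p = 0.0167). All 8 libraries outside Control lay above both Control libraries. These calls were lost in 11, 5 and 4 of 19 alternative fits, each time with no filter and without either Control library. The Day1 call was also lost without Day1 replicate 2 or any Day3 or Extracted library, among nuclear protein-coding genes and with median-of-ratios scaling, and the Day3 call without either Day3 library. Differences ran from 0.22 to 0.53 in Day1, 0.43 to 0.63 in Day3 and 0.32 to 0.66 in Treated cells.

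PRDX3 and PRDX4 work in mitochondria and in the endoplasmic reticulum. PRDX3 was at 104 and 124 TPM in Day1, 133 and 132.5 TPM in Day3, 110.2 and 112 TPM in Extracted and 89.7 and 83.7 TPM in Treated libraries, against 114 and 112 TPM in Control libraries. PRDX4 was at 94.4 and 109.8 TPM in Day1, 98.6 and 89.2 TPM in Day3, 89.0 and 95.03 TPM in Extracted and 68.3 and 61.9 TPM in Treated libraries, against 87.1 and 86.4 TPM in Control libraries. Both were lowest in the Treated pair, where PRDX3 fell by 0.38 ± 0.10 (limma adjusted p = 0.0228) and PRDX4 by 0.41 ± 0.11 (limma adjusted p = 0.0215). Neither was called under median-of-ratios scaling, with the compared groups alone, or without either Control library or Treated replicate 2, and PRDX3 was also lost with small-RNA genes removed. Differences ran from -0.43 to -0.22 for PRDX3 and from -0.48 to -0.25 for PRDX4. PRDX1 (542 to 766 TPM), PRDX2 (50.8 to 74.8 TPM) and PRDX6 (246 to 338 TPM) were called in no comparison as deposited. In Day1 cells PRDX6 passed under median-of-ratios scaling at -0.31, and its difference was -0.39 among nuclear protein-coding genes alone. Between Day3 and Day1 cells PRDX2 differed by 0.36 as deposited (limma adjusted p = 0.129) and by 0.42 among nuclear protein-coding genes alone.

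Catalase, the peroxisomal enzyme that splits hydrogen peroxide, had opposite calls in the last gel group and in cisplatin survivors. CAT (chr11:34438925-34472062, plus strand) was at 43.3 and 46.8 TPM in Day1 libraries, 65.3 and 59.3 TPM in Day3, 32.9 and 33.3 TPM in Extracted and 29.5 and 28.2 TPM in Treated, against 39.2 and 41.6 TPM in Control libraries, and no group's pair overlapped another's. It rose by 0.61 ± 0.10 in Day3 cells (limma adjusted p = 0.00703) and fell by 0.47 ± 0.10 in Treated cells (limma adjusted p = 0.00881). The first call was lost without Control replicate 1 or Day3 replicate 1, with differences from 0.47 to 0.68, and the second without Control replicate 2 and with the compared groups alone, with differences from -0.51 to -0.31. The superoxide dismutases SOD1, cytosolic (403 to 569 TPM), and SOD2, mitochondrial (44.5 to 65.9 TPM), were called nowhere. Treated replicate 1 was the highest library for both, at 569 and 65.9 TPM, and Treated replicate 2 stood at 403 and 48.6 TPM. Under median-of-ratios scaling both passed in Treated cells, at 0.34 and 0.44.

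FTH1 was the most abundant member and the one called in all 4 comparisons with Control, and FTL was called in 3, as PRDX5 was. FTH1, the heavy chain that oxidises iron for storage (chr11:61959718-61967660, minus strand), ranked 2nd of all genes by mean TPM. It was at 13860 and 12709 TPM in Day1 libraries, 13531.5 and 13908 TPM in Day3, 12576.5 and 13054.5 TPM in Extracted and 18488 and 16091 TPM in Treated, against 8559 and 9085 TPM in Control libraries. Every library outside Control exceeded both Control libraries, and both Treated libraries exceeded all others. FTH1 rose by 0.59 ± 0.10 in Day1 cells (limma adjusted p = 0.00336) and 0.64 ± 0.10 in Day3 cells (limma adjusted p = 0.00499). It rose by 0.54 ± 0.10 in Extracted cells (limma adjusted p = 0.0257) and 0.97 ± 0.10 in Treated cells (limma adjusted p = 0.000199). The Extracted call was lost in 8 of 19 alternative fits, with no filter, with no variance trend and without any Control, Day3 or Extracted library, with differences from 0.47 to 0.58 and adjusted p from 0.00198 to 0.271. The Day1 call was lost with no filter, and the Day3 call with no filter and without Control replicate 1 or either Day3 library, with differences from 0.38 to 0.65 for Day1 and from 0.49 to 0.68 for Day3. Mitochondrial messages took a smaller share in all these groups than in Control. Among nuclear protein-coding genes alone the FTH1 differences were 0.38 for Day1, 0.49 for Day3 and 0.47 for Extracted cells, with 1.01 for Treated cells, and all 4 were called. BEST1, on the opposite strand, shares 62.4% of FTH1 exonic bases but reached at most 1.23 TPM, and 25 FTH1 pseudogenes summed to at most 0.532% of FTH1.

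FTL, the light chain that helps the iron core form (chr19:48965301-48966878, plus strand), was at 619 and 645 TPM in Day1 libraries, 631 and 615 TPM in Day3, 460.2 and 474 TPM in Extracted and 598 and 572 TPM in Treated, against 414 and 422 TPM in Control libraries. It rose by 0.60 ± 0.08 in Day1 (limma adjusted p = 0.00131), 0.58 ± 0.08 in Day3 (limma adjusted p = 0.00321) and 0.48 ± 0.08 in Treated cells (limma adjusted p = 0.00247). In Extracted cells the difference was 0.16 (95% interval -0.01 to 0.33) and did not pass, though both Extracted libraries lay above both Control libraries. The ratio of FTH1 to FTL TPM was 22.4 and 19.7 in Day1 libraries, 21.4 and 22.6 in Day3, 27.3 and 27.5 in Extracted libraries and 30.9 and 28.1 in Treated libraries, against 20.7 and 21.5 in Control libraries. The recovered groups thus stood apart from the gel groups and Control in the chain ratio, without overlap.

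Because ferritin translation is known to be set by an iron-responsive element, the loop CAGTGN with an unpaired C placed 6 bases before it was searched in the first 50 transcribed bases of the RefSeq windows. The last letter, N, was allowed to be A, C or T but not G. FTL and GPX1 held it, 2 of the 25 members with a window, against 1.42% of all genes and 1.11% of windows. The C and the loop are in capitals, and the letters do not show that a stem forms. FTH1, GSR, GSS, HMOX1, PRDX1, PRDX6 and SOD1 were not searched here for either motif.
FTL, chr19:48965336-48965358, plus strand, unpaired C at base 33: tcttgCttcaaCAGTGTttggac
GPX1, chr3:49358313-49358335, minus strand, unpaired C at base 24: gcctcCccttaCAGTGCttgttc

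TFRC, the receptor that imports transferrin-bound iron (chr3:196027183-196082189, minus strand), was at 194 and 158 TPM in Day1 libraries, 149 and 145 TPM in Day3, 154 and 159 TPM in Extracted and 111 and 92.8 TPM in Treated, against 149.6 and 142 TPM in Control libraries. It fell by 0.52 ± 0.12 in Treated cells (limma adjusted p = 0.0134), whose 2 libraries were the lowest of all 10. The call was lost without either Control library and without Treated replicate 2, with differences from -0.64 to -0.35. The ratio of summed ferritin to TFRC TPM within a library, which does not depend on the library total, was 74.7 and 84.5 in Day1 libraries, 95.3 and 100.2 in Day3, 84.9 and 84.9 in Extracted libraries and 172 and 179.6 in Treated libraries, against 59.97 and 67.2 in Control libraries. Treated libraries were the highest and Control libraries the lowest in this ratio.

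SLC40A1, the iron exporter ferroportin (chr2:189560579-189583758, minus strand), was a low transcript, at 2.73 and 3.91 TPM in Day1 libraries, 5.78 and 6.01 TPM in Day3, 1.90 and 1.85 TPM in Extracted and 2.69 and 2.54 TPM in Treated, against 2.95 and 2.44 TPM in Control libraries. It rose by 0.90 ± 0.17 in Day3 cells (limma adjusted p = 0.0129), where both libraries lay above all others, a call lost without any Control or Day3 library, with differences from 0.81 to 1.11. At such TPM the pseudocount of 1 understates the ratio. IREB2, the iron regulatory protein, was at 21.7 and 19.1 TPM in Day1, 23.3 and 19.7 TPM in Day3, 17.6 and 16.5 TPM in Extracted and 20.8 and 12.3 TPM in Treated libraries, against 17.7 and 17.3 TPM in Control libraries. It was called in no comparison, and its Treated libraries lay on both sides of Control.

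**Figure D3:**
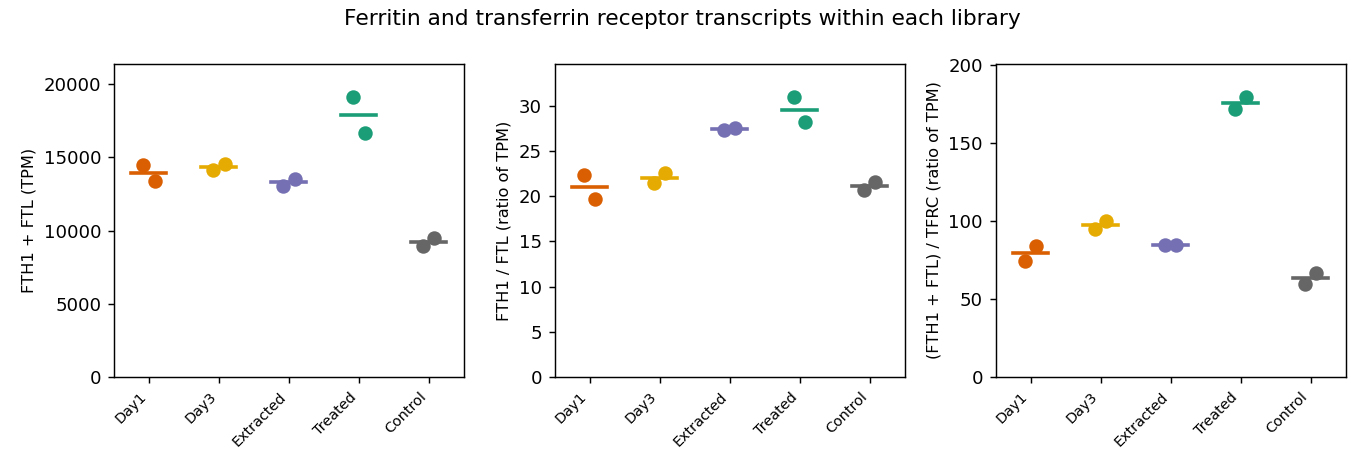
Points are values of single libraries and bars are group means for summed FTH1 and FTL TPM (left), the ratio of FTH1 to FTL TPM (middle) and the ratio of summed ferritin to TFRC TPM (right). Treated libraries are highest in all 3 panels, and the chain ratio is at least 27.3 in Extracted and Treated libraries and at most 22.6 elsewhere.

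**Figure D4:**
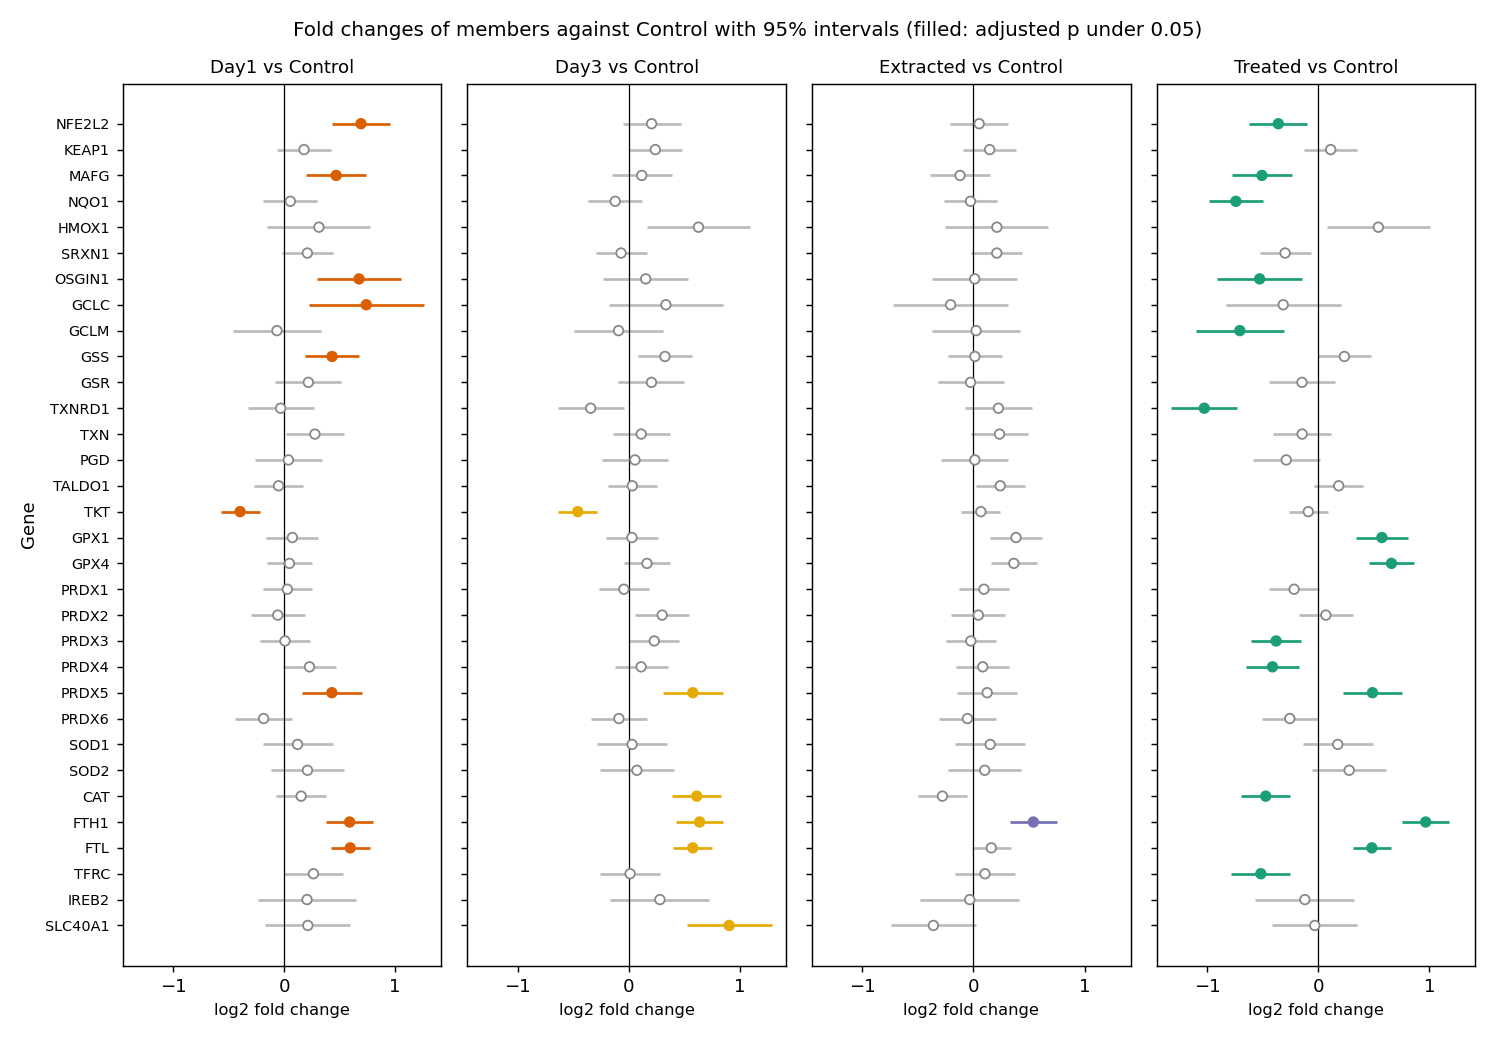
Points are log2 differences of the 32 members against Control with 95% intervals from limma, one panel per group, and filled points passed an adjusted p of 0.05. FTH1 is filled in all 4 panels, while NFE2L2, MAFG and OSGIN1 are filled on the right in Day1 and on the left in Treated.

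Between the 2 times in gel, 1 member was called higher and 0 lower in Day3 than in Day1 cells, beside 0.659% and 1.69% of all genes and 2.35% in either direction. At an unadjusted p under 0.05, limma gave 3 higher and 5 lower. CAT rose by 0.46 ± 0.10 (limma adjusted p = 0.0457), a call lost in 11 of 19 alternative fits, including the replicate block, the compared groups alone and leaving out any Control, Day3 or Extracted library or Day1 replicate 1, with differences from 0.39 to 0.53. NFE2L2 differed by -0.49 between Day3 and Day1 cells (limma adjusted p = 0.0658) and was called under each of the 3 other scalings, at -0.42, -0.43 and -0.48. SLC40A1 differed by 0.69 as deposited (limma adjusted p = 0.0723) and by 0.75 among nuclear protein-coding genes alone.

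Between recovery and the gel, Extracted cells had 3 members called higher and 4 lower than Day3 cells, beside 6.30% and 10.8% of all genes and 17.1% in either direction. TKT rose by 0.53 ± 0.08 (limma adjusted p = 0.00217), TXNRD1 by 0.57 ± 0.13 (limma adjusted p = 0.0176) and GPX1 by 0.35 ± 0.11 (limma adjusted p = 0.0448). SLC40A1 fell by 1.26 ± 0.17 (limma adjusted p = 0.00144), CAT by 0.89 ± 0.10 (limma adjusted p = 0.000616), PRDX5 by 0.45 ± 0.12 (limma adjusted p = 0.0287) and FTL by 0.42 ± 0.08 (limma adjusted p = 0.00635). FTH1 differed by -0.10 (95% interval -0.31 to 0.11) in the same comparison. The TKT, CAT and SLC40A1 calls were made in all 19 alternative fits. The TXNRD1, PRDX5 and GPX1 calls were lost with no filter and without any Day3 or Extracted library, PRDX5 and GPX1 also with no variance trend, GPX1 also without either Control library, and FTL without Day3 replicate 1 or either Extracted library. Differences over the 19 fits ran from 0.50 to 0.65 for TXNRD1, -0.50 to -0.37 for PRDX5 and -0.44 to -0.34 for FTL, and over 18 fits from 0.33 to 0.43 for GPX1. With median-of-ratios scaling 5 were called higher and 4 lower, beside 1622 and 1511 of 15151 tested genes. Among nuclear protein-coding genes it was 6 and 4, beside 1504 and 1506 of 13140 tested genes.

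The recovered groups were compared directly. Treated cells had 2 members called higher and 8 lower than Extracted cells, beside 3.24% and 8.87% of all genes and 12.1% in either direction. With median-of-ratios scaling it was 4 higher and 5 lower, beside 928 and 787 of 15151 tested genes. Both ferritin chains rose, FTH1 by 0.43 ± 0.10 (limma adjusted p = 0.0222) and FTL by 0.32 ± 0.08 (limma adjusted p = 0.0289). TXNRD1 fell by 1.25 ± 0.13 (limma adjusted p = 0.000858), GCLM by 0.73 ± 0.18 (limma adjusted p = 0.0299), NQO1 by 0.71 ± 0.11 (limma adjusted p = 0.00572), TFRC by 0.62 ± 0.12 (limma adjusted p = 0.0142) and SRXN1 by 0.51 ± 0.10 (limma adjusted p = 0.0167). PRDX4 fell by 0.49 ± 0.11, NFE2L2 by 0.41 ± 0.12 and PRDX3 by 0.35 ± 0.10 (limma adjusted p = 0.0204, 0.0487 and 0.0467). SRXN1 was at 19.7 and 20.1 TPM in Treated libraries, against 26.9 and 30.7 TPM in Extracted libraries. Its other values were 29.1 and 28.3 TPM in Day1, 23.3 and 23.7 TPM in Day3 and 24.7 and 24.6 TPM in Control libraries.

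The TXNRD1 call against Extracted cells was made in all 19 alternative fits and the NQO1 call in all but the fit without Extracted replicate 2, where the adjusted p was 0.0682, the highest for NQO1. The NFE2L2 and PRDX3 calls were lost in 13 and 14 of 19, including each of the 3 other scalings, the compared groups alone and leaving out any Control, Day3 or Extracted library or Treated replicate 2, with differences from -0.50 to -0.27 and from -0.40 to -0.21. GCLM was lost in 11, including median-of-ratios scaling and leaving out any Control, Day3 or Treated library or Extracted replicate 2, with differences from -0.997 to -0.46. FTH1, SRXN1, PRDX4 and TFRC were lost without either Extracted library, PRDX4 and TFRC also without Treated replicate 2, and FTL without any Control, Day3 or Extracted library. All 5 were also lost with the compared groups alone, FTH1 and FTL with no variance trend, and FTH1 with no filter. Their differences kept to 0.33 to 0.57 for FTH1, 0.29 to 0.47 for FTL, -0.60 to -0.37 for SRXN1, -0.56 to -0.35 for PRDX4 and -0.75 to -0.48 for TFRC. GPX4 and PRDX5 did not pass here (0.30 and 0.37), but both passed under each of the 3 other scalings.

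Other genes of these pathways were read from 8 lists, given as counts of genes called higher and lower among those tested. Of all genes, 14.4% were higher and 6.28% lower in Day1 cells. The shares were 5.18% and 4.64% for Day3, 0.857% and 1.13% for Extracted cells, and 6.28% and 18.2% for Treated ones. Of 12 further genes controlling NRF2, 3 were higher and 0 lower in Day1 cells, 1 and 0 in Day3, 0 and 0 in Extracted, and in Treated cells 1 and 1, with medians of 0.40, 0.10, 0.21 and -0.07. That is 25% higher and 0% lower in Day1 cells and 8.33% and 8.33% in Treated cells. SQSTM1, the autophagy receptor that sequesters KEAP1, was at 539 and 423 TPM in Day1 libraries and 330.1 and 371 TPM in Day3 libraries, against 197 and 212 TPM in Control libraries. It rose by 1.22 (limma adjusted p = 0.000291) and 0.77 (limma adjusted p = 0.00602). MAFF, another small MAF protein, rose by 1.76 in Day1 cells (limma adjusted p = 0.000373) and 0.88 in Treated cells (limma adjusted p = 0.00808), opposite in sign to MAFG in Treated cells. RBX1, a subunit of the ligase that KEAP1 recruits, rose by 0.40 in Day1 cells (limma adjusted p = 0.028) and DPP3, which binds KEAP1, fell by 0.59 in Treated cells (limma adjusted p = 0.0069). The 3 other scalings gave counts of 2 to 6 higher and 1 lower in Day1, 1 and 1 to 2 in Day3, 0 and 1 in Extracted, and 1 to 2 and 1 to 2 in Treated cells.

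Of 26 other NRF2 targets, 21 were tested. In Day1 cells 2 were higher and 3 lower, in Day3 cells 1 and 0, in Extracted cells 0 and 1 and in Treated cells 2 and 6, with medians of 0.00, 0.07, -0.06 and -0.16. As shares, these were 9.52% higher and 14.3% lower in Day1 cells and 9.52% and 28.6% in Treated cells. SLC7A11, the cystine importer that feeds glutathione synthesis, was at 10.0 and 7.89 TPM in Day1 libraries and 2.90 and 2.54 TPM in Treated libraries, against 5.20 and 5.51 TPM in Control libraries. It rose by 0.64 in Day1 (limma adjusted p = 0.0151) and fell by 0.77 in Treated cells (limma adjusted p = 0.00531). ME1, malic enzyme, an NADPH source, fell by 0.98 (limma adjusted p = 0.0012) and the heme transporter SLC48A1 by 0.99 (limma adjusted p = 0.000371) in Treated cells, the last also by 0.55 in Extracted cells (limma adjusted p = 0.0378). UGDH, which makes the donor for glucuronidation, rose by 0.73 in Day1 (limma adjusted p = 0.0024) and 0.47 in Day3 cells (limma adjusted p = 0.0281), and the aldo-keto reductase AKR1B1 fell by 0.44 in Day1 cells (limma adjusted p = 0.0131). Counts under the 3 other scalings were 2 higher and 2 to 5 lower in Day1, 1 and 1 to 2 in Day3, 0 and 0 to 1 in Extracted, and 2 to 4 and 5 to 6 in Treated cells.

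Genes of glutathione supply and turnover (14 of 15 tested) gave 6 higher and 0 lower in Day1 cells, 0 and 1 in Day3, 0 and 0 in Extracted, and for Treated cells 1 and 3, with medians of 0.16, -0.02, 0.10 and -0.17. These counts came to 42.9% higher and 0% lower in Day1 cells and 7.14% and 21.4% in Treated cells. CHAC1, which degrades glutathione, was at 58.5 and 49.2 TPM in Day1 libraries, against 20.7 and 21.6 TPM in Control libraries (1.30, limma adjusted p = 0.000247). CTH, which makes cysteine from cystathionine, rose by 1.27 (limma adjusted p = 0.00286) and SLC3A2, the partner chain of SLC7A11, by 0.91 (limma adjusted p = 0.00442) in the same cells. CTH also rose by 0.61 in Treated cells (limma adjusted p = 0.0472), where the neutral amino acid transporter SLC1A4 fell by 0.63 (limma adjusted p = 0.0303). Between Day3 and Day1 cells 0 of these genes were called higher and 5 lower, or 0% and 35.7%, beside 0.659% and 1.69% of all genes. The 3 other scalings kept 6 higher in Day1 cells with 0 to 5 lower, and left the Day3, Extracted and Treated counts as they were.

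Of 22 glutathione transferases and glutaredoxins, 20 were tested, with 3 higher and 2 lower in Day1 cells, 2 and 0 in Day3, 0 and 0 in Extracted, and for Treated cells 1 and 3, and medians of 0.15, 0.11, 0.09 and -0.03. That is 15% higher and 10% lower in Day1 cells and 5% and 15% in Treated cells. GSTA4, which conjugates the lipid peroxidation product hydroxynonenal, was at 5.58 and 5.83 TPM in Day1, 7.48 and 8.19 TPM in Day3 and 5.61 and 6.33 TPM in Treated libraries, against 2.69 and 3.62 TPM in Control libraries. Its differences were 0.70, 1.10 and 0.75 (limma adjusted p = 0.0117, 0.00346 and 0.00688). MGST1, a membrane-bound transferase, rose by 0.63 in Day3 cells (limma adjusted p = 0.00363), while GSTM4 and GSTM2 fell by 0.85 and 0.73 in Day1 cells (limma adjusted p = 0.0338 and 0.0352). These transferases have near-identical relatives whose reads the counting may have split. LANCL1, a glutathione-binding protein, fell by 0.61 and the mitochondrial glutaredoxin GLRX2 by 0.67 in Treated cells (limma adjusted p = 0.00407 and 0.0175). With the 3 other scalings the counts were 2 to 6 higher and 2 to 4 lower in Day1, 2 to 3 and 0 to 1 in Day3, 1 and 0 in Extracted, and 3 to 4 and 2 to 3 in Treated cells.

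Thioredoxin-related and other peroxidase genes (14 of 18 tested) gave 4 higher and 0 lower in Day1 cells, 4 and 0 in Day3, 0 and 0 in Extracted, and for Treated cells 2 and 0, with medians of 0.27, 0.20, -0.03 and -0.09. As shares, these were 28.6% higher and 0% lower in Day1 cells and 14.3% and 0% in Treated cells. TXNIP, which binds and inhibits thioredoxin, was at 20.9 and 15.3 TPM in Day1, 18.1 and 19.0 TPM in Day3 and 16.0 and 12.1 TPM in Treated libraries, against 4.64 and 6.57 TPM in Control libraries. It rose by 1.53, 1.58 and 1.19 (limma adjusted p = 0.00123, 0.00236 and 0.00292). SESN2, a stress-induced sestrin, rose by 1.89 in Day1 (limma adjusted p = 0.000122) and 0.65 in Day3 cells (limma adjusted p = 0.0279), GPX8 by 0.58 in Day1 cells (limma adjusted p = 0.0164), the mitochondrial methionine sulfoxide reductase MSRB2 by 0.69 in Day3 cells (limma adjusted p = 0.0272) and the secreted GPX3 by 0.87 in Treated cells (limma adjusted p = 0.00142). The 3 other scalings gave counts of 3 to 5 higher and 0 to 1 lower in Day1, 2 to 4 and 0 in Day3, 0 and 0 in Extracted, and 3 and 0 to 1 in Treated cells.

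Other NADPH supply genes (15 of 16 tested) gave 3 higher and 1 lower in Day1 cells, 0 and 0 in Day3, 0 and 0 in Extracted, and for Treated cells 1 and 3, with medians of 0.02, -0.04, -0.01 and -0.15. These counts came to 20% higher and 6.67% lower in Day1 cells and 6.67% and 20% in Treated cells. MTHFD2, of mitochondrial folate metabolism, was at 317 and 245 TPM in Day1 libraries, against 139 and 141 TPM in Control libraries (0.98, limma adjusted p = 0.000841). ALDH1L2, a mitochondrial folate enzyme, rose by 0.97 (limma adjusted p = 0.0111) and PGLS, the lactonase of the pentose phosphate pathway, by 0.48 (limma adjusted p = 0.0166) in the same cells. MTHFD1, of cytosolic folate metabolism, fell by 0.42 in Treated cells (limma adjusted p = 0.0133). Counts under the 3 other scalings were 2 to 3 higher and 0 to 5 lower in Day1 and 0 to 1 and 1 to 3 in Day3 cells, with the Extracted and Treated counts as before.

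Of 34 other iron and heme genes, 29 were tested, with 4 higher and 2 lower in Day1 cells, 2 and 1 in Day3, 0 and 0 in Extracted, and for Treated cells 5 and 5, and medians of 0.15, 0.09, 0.10 and -0.02. That is 13.8% higher and 6.9% lower in Day1 cells and 17.2% and 17.2% in Treated cells. LCN2, a secreted protein that binds iron-carrying siderophores, was at 84.0 and 58.3 TPM in Day1, 61.1 and 76.4 TPM in Day3 and 149 and 159 TPM in Treated libraries, against 17.2 and 16.0 TPM in Control libraries. It rose by 2.01, 1.98 and 3.14 (limma adjusted p = 0.000195, 0.000427 and 1.18e-05). CP, the ferroxidase ceruloplasmin, rose by 0.76 in Day3 (limma adjusted p = 0.0423) and 1.47 in Treated cells (limma adjusted p = 0.0011), and CYBRD1, a membrane ferric reductase, by 1.34 in Treated cells (limma adjusted p = 0.000639). The mitochondrial iron importers SLC25A28 and SLC25A37 fell by 0.55 and 0.52 in Day1 cells (limma adjusted p = 0.0183 and 0.0256), and SLC25A28 by 0.51 in Day3 cells (limma adjusted p = 0.0412). With the 3 other scalings the counts were 1 to 8 higher and 2 to 4 lower in Day1, 2 and 2 to 3 in Day3, 1 and 0 in Extracted, and 6 to 7 and 2 to 6 in Treated cells.

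Ferroptosis genes (13 of 14 tested), which share SLC7A11, SLC3A2 and CHAC1 with the lists above, gave 4 higher and 0 lower in Day1 cells, 0 and 0 in Day3, 0 and 0 in Extracted, and for Treated cells 2 and 5, with medians of 0.26, 0.02, 0.15 and -0.26. As shares, these were 30.8% higher and 0% lower in Day1 cells and 15.4% and 38.5% in Treated cells. SAT1, which acetylates polyamines, was at 80.1 and 54.9 TPM in Day1 and 123 and 97.9 TPM in Treated libraries, against 30.6 and 36.4 TPM in Control libraries. It rose by 0.97 (limma adjusted p = 0.00543) and 1.69 (limma adjusted p = 0.000253). CHAC1 fell by 0.58 in Treated cells (limma adjusted p = 0.00941), at 12.6 and 15.0 TPM there, against 20.7 and 21.6 TPM in Control libraries. The 3 other scalings gave counts of 4 to 5 higher and 1 to 2 lower in Day1, 0 and 0 in Day3, 1 and 0 in Extracted, and 2 to 3 and 2 to 5 in Treated cells. Against Extracted cells directly, Treated cells had 1 of these genes called higher and 5 lower. That is 7.69% and 38.5% of the list, beside 3.24% and 8.87% of all genes.

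Where limma called 0 genes of a list, some had an unadjusted p under 0.05. In Extracted cells these were 2 higher and 2 lower for NRF2 control, 1 and 1 for glutathione supply, 2 and 0 for transferases and glutaredoxins, 1 and 2 for thioredoxin-related genes, 2 and 1 for NADPH supply, 5 and 2 for iron and heme and 2 and 0 for ferroptosis. In Day3 cells they were 1 and 4 for NADPH supply and 1 and 0 for ferroptosis. Of the list genes named, RBX1 in Day1 cells and SLC48A1 in Extracted cells lost their call under median-of-ratios scaling. Calls made in fewer than 5 of the 10 fits that left out 1 library were RBX1 and GSTM2 in Day1 cells (3 and 4), UGDH, CP and SLC25A28 in Day3 cells (4 each), SLC48A1 in Extracted cells (4) and CTH in Treated cells (2).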

How the data were processed

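RNA of 10 OVCAR-3 libraries, 2 per group, was analysed from the table the authors deposited, which holds TPM per gene. Per the submitters' processing notes, Trimmomatic, STAR, Cufflinks and GRCh38 were used. Not given in the sources used here: their versions, the annotation release, library selection and strand setting. With TPM, depth cannot be known, so there are no counting intervals, and the number of libraries limits precision. Per the labels the replicates are biological, and nothing further says how cultures were separated, so p-values measure only the spread between these samples. Entries that share an Ensembl identifier were summed (58313 entries, 58222 genes). GENCODE 29 gave positions and annotation classes, with 99.55% of identifiers matched.

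The filter kept 15167 genes, those reaching 1 TPM in 2 or more libraries. log2(TPM + 1) of all 10 libraries was fitted once with limma 3.58.1 (R 4.3.3), using a coefficient for each group and a variance trend, which left 5 residual degrees of freedom. Tests were two-sided over 7 comparisons and a moderated F, with Benjamini-Hochberg adjustment over all genes, called under 0.05. A difference understates the ratio of low TPM. The fitting code was tested on simulated data. Python 3.11.15 made the tables (pandas 2.3.3, NumPy 2.4.6) and the figures (Matplotlib 3.10.9). Other settings tried were no filter, a 5 TPM filter, a pseudocount of 0.1, scaling by median of ratios, restriction to nuclear protein-coding genes, removal of small-RNA genes, the compared groups alone, a replicate block, no variance trend, and each library left out.

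All members are described. Those called in a comparison have their value in every library, as do the regulators. Of each of the 8 pathway lists, the 3 called genes with the largest change against Control and a group mean of at least 5 TPM are named. A gene that this rule would name is not reported here. Other genes named beside these, and further values of members that were not called, were chosen after their values were seen. The members and lists were chosen with earlier results of these data known. Motifs were searched in RefSeq start windows of GRCh38.p14.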

Additional observations from a re-analysis of the deposited data

Results flagged for a closer look

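CAT, the catalase gene, passed the test of a difference between the 2 times in gel. It was 0.46 higher on the log2 scale in Day3 than in Day1 cells, a difference tested directly in the fit over all genes (limma adjusted p = 0.0457), but the call was lost in 11 of 19 alternative fits, the replicate block among them, with adjusted p between 0.0134 and 0.311. The libraries stood at 65.3 and 59.3 TPM in Day3 cells and at 43.3 and 46.8 TPM in Day1 cells, against 39.2 and 41.6 TPM in Control cells. The messenger RNA share of the mitochondrial genome also differed, at 5.97% and 7.61% in Day3 and 2.29% and 3.92% in Day1 libraries. Among nuclear protein-coding genes alone the CAT difference was 0.52.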

How the results depend on the processing

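Counts of called members are given as set by the main fit and then by each alternative that moved them by over 1.5 times. The cause was not tested. Calls over all tested genes moved as well, so these counts do not set members apart from other genes. With no filter, 1433 genes were higher and 741 lower in Day1 cells, against 2180 and 952 in the main fit. For Extracted cells it was 48 and 51, against 130 and 172. Without either Control library, calls over all genes against Control were also fewer. All genes were not counted for the compared groups alone. Day1 against Control had 9 called, and 5 with no filter. Day3 against Control had 6, and 10 with the compared groups alone. Extracted against Control had 1, 0 with no filter or no variance trend, 2 among nuclear protein-coding genes or with small-RNA genes removed, and 4 with the compared groups alone. Treated against Control had 15, and 8 with the compared groups alone. Day3 against Day1 had 1, 0 with no filter, a replicate block, no variance trend or the compared groups alone, 2 with a filter at 5 TPM, median-of-ratios scaling or small-RNA genes removed, and 4 among nuclear protein-coding genes. Extracted against Day3 had 7, 4 with no filter and 13 with the compared groups alone. Treated against Extracted had 10, 6 with no filter or no variance trend, and 2 with the compared groups alone. Leaving out 1 library gave 3 to 10 for Day1, 1 to 6 for Day3, 0 to 2 for Extracted and 6 to 19 for Treated against Control, 0 to 3 for Day3 against Day1, 3 to 8 for Extracted against Day3, 1 to 14 for Treated against Extracted, and 17 to 25 for the F test. The lowest Day1 and Treated counts came without a Control library (3 without replicate 1, 6 without replicate 2), the lowest Day3 counts without Control replicate 1 or Day3 replicate 1 (1 each), and the lowest count of Treated against Extracted without Extracted replicate 2. Deviations of replicate 1 from its group mean, over all tested genes, correlated between groups at -0.022 to 0.087. These values show no sign of pairing by replicate number but cannot exclude it, since the spread of single libraries could hide it. With a replicate block the counts were 9, 6, 1 and 14 against Control, 0, 7 and 9 for the other comparisons, and 20 for the F test. A left-out fit leaves its group with 1 library, assumed to vary like the others. Without known depth, low members such as HMOX1 and SLC40A1 carry an error that TPM do not show.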
